A study of Drosophila melanogaster with 7 samples.

Results

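The baseline transcriptome of the larval fat body was described from the control samples alone. Its members were the genes with an FPKM of at least 1 in all 3 control replicates, and 6550 of the 14804 genes in the tables met this rule. FPKM counts sequenced fragments relative to transcript length and to the size of the library, so that levels of different genes can be set side by side. All 3 replicates were offspring of a cross between Bx-GAL4 and W1118, were collected as wandering larvae and received no treatment. They carry the Bx-GAL4 driver, which the study uses to express transgenes in wing discs and salivary glands, and no UAS transgene. Each replicate pooled the fat bodies of 40 larvae, dissected without the gonads, and the sex of the larvae is not given in the sources used here. The 3 RasV12 samples of the series were not used here. With a single group there is no contrast to test, and the values below are descriptions with the spread over the 3 replicates.

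The fat body of the fly larva combines the roles that liver and adipose tissue have in mammals. It stores triglycerides and glycogen, secretes most proteins of the hemolymph, and senses nutrients and hormones. Before metamorphosis it makes hexameric larval serum proteins in bulk, which serve as an amino acid store for building adult tissues. It is also the main source of antimicrobial peptides and other humoral immune effectors.

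The defining markers of fat body were present at very high levels, and markers of some other tissues differed in level between the replicates. All 9 fat body markers were members, and their summed FPKM was 117367, 113904 and 141464 in replicates 1, 2 and 3. Replicate 1 held the highest level of midgut markers, 33 genes with a summed FPKM of 726, 85.7 and 11.3 in the 3 replicates, of which 1, Jon65Aiv, was a member. The 4 Malpighian tubule markers followed with 15.1, 0.24 and 0.49. The 98 larval cuticle genes summed to 4401, 3486 and 4696, lowest in replicate 2, and Cpr49Ac made up most of this. Without Cpr49Ac the order turned, and the sum was 20.7, 392 and 54.5, highest in replicate 2. The 15 muscle markers were highest in replicate 3 (79.1, 90.5 and 124). The 10 hemocyte markers summed to 56.8, 105 and 68.3, and to 11.0, 54.3 and 25.2 without crq. Most of the latter sum in replicate 2 was a single gene, CG8193 (5.11, 44.1 and 11.6). Pxn (4.61, 5.99 and 7.74), nimC1 (0.58, 2.05 and 3.20) and eater (0.74, 1.36 and 2.14) were highest in replicate 3. Hml, a defining gene of hemocytes, was listed at 0 in all 3, but at 4.12 in run 3B, a second sequencing of replicate 3. The 12 salivary gland markers summed to 25.5, 21.8 and 6.30. Implied by the confidence bounds, the 3 tables rested on 6271150, 7327930 and 2900630 fragments, so that replicate 3 had 0.463 of the depth of replicate 1. Because fat bodies were measured in bulk, fewer cells of a type and less RNA per cell cannot be told apart.

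**Figure D1:**
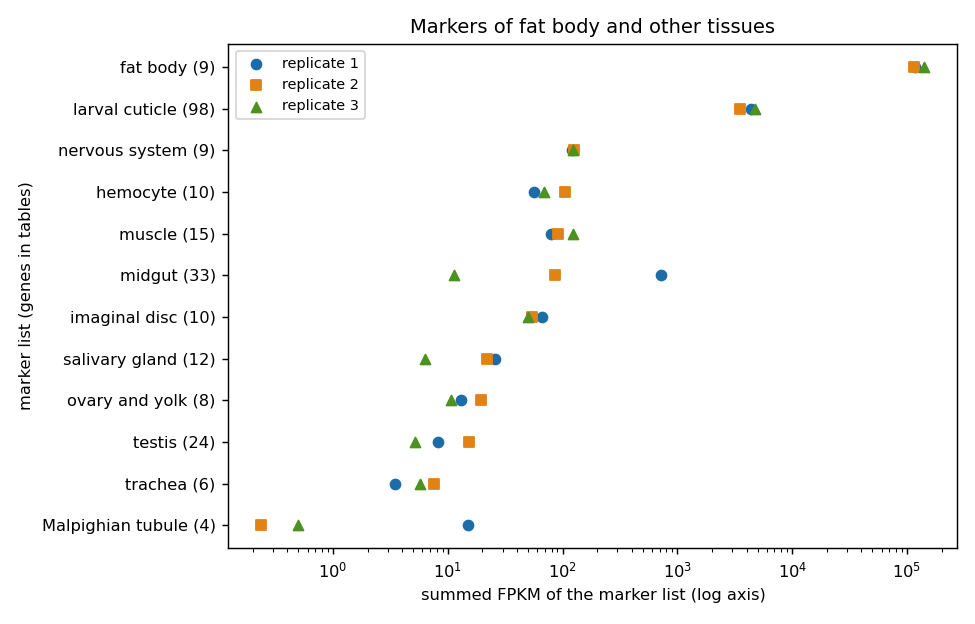
Summed FPKM (log axis) of the marker lists of fat body and 11 other tissues, with the number of genes found in the tables in brackets; each symbol is 1 control replicate. The fat body list lies between 113904 and 141464, whereas midgut and Malpighian tubule markers are highest in replicate 1.

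Transcripts of the serum protein class led the profile, a class that here also counts the receptor gene Fbp1 and Fbp2. The 7 most abundant genes were the 4 larval serum proteins, Fbp1, Fbp2 and Obp99b. Lsp2, which encodes the larval serum protein 2 hexamerin (chr3L:12122493-12124796 in BDGP5), had FPKM of 23926, 21124 and 28247 in replicates 1, 2 and 3, or 3.44% ± 0.43 (SD, n = 3) of the summed FPKM of all members. Lsp1beta (24450, 21839 and 22871) and Lsp1gamma (20169, 20618 and 22381), subunits of the other hexamerin, made up 3.26% and 2.97%. The remaining subunit Lsp1alpha, on the X chromosome, stood at 8267 in replicate 1 and at 16396 and 15391 in replicates 2 and 3. The 4 genes together took 11.1%, 11.4% and 12.2%, so that the share of the list varied less between replicates (CV 4.92%) than Lsp1alpha did. This CV is one of shares and does not make the 4 genes steady. With the upper-quartile scaling described below, their median ratio of highest to lowest replicate was 1.47. Of the 4, 1 was then over 2 and 0 were under 1.2. Without scaling the median was 1.23, with 0 over 2 and 2 under 1.2.

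Fbp1 encodes the receptor through which the fat body takes up larval serum proteins from the hemolymph again, and Fbp2 encodes the P6 protein, related to alcohol dehydrogenase. Fbp1 was measured at 18494, 12535 and 23886 FPKM, lowest in replicate 2 and highest in replicate 3. Fbp2 showed the same order with 16898, 15433 and 22673. Obp99b belongs to the odorant-binding proteins, small secreted carriers of hydrophobic ligands. It was the most abundant gene of replicate 3 with 30804 and stood at 15850 and 19167 in replicates 1 and 2. Obp99c followed with 3170, 3219 and 4473, and Obp99a was far lower with 93.2, 159 and 143. Of the 10 odorant-binding genes listed, 4 were members.

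The other genes in the plot of the most abundant transcripts are 4 of the mitochondrial genome, 2 of ribosome and translation, 2 further serum proteins, Obp99c and Rfabg, and 5 without a list. Mitochondrial cytochrome c oxidase transcripts mt:CoIII (5132, 5519 and 8359), mt:CoI (4250, 4915 and 7179) and mt:CoII (3670, 4004 and 5891) were each highest in replicate 3. Ef1alpha48D, the elongation factor that delivers aminoacyl-tRNA to the ribosome, had FPKM of 7134, 5429 and 6287. Rfabg, the apolipophorin precursor of the main lipid carrier of the hemolymph, had 3183, 3986 and 3568. RpL41 was the most abundant ribosomal protein transcript with 3496, 2935 and 3764. Among the 5 without a list was Cpr49Ac, named as a cuticle protein, with 4380, 3094 and 4641. CG34166 (7216, 7108 and 11109) and CG31775 (4117, 4728 and 5205) are also among them, and both lie with CG42586 (2546, 2655 and 3925) in the same stretch of 2L between positions 14737097 and 14743859.

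**Figure D2:**
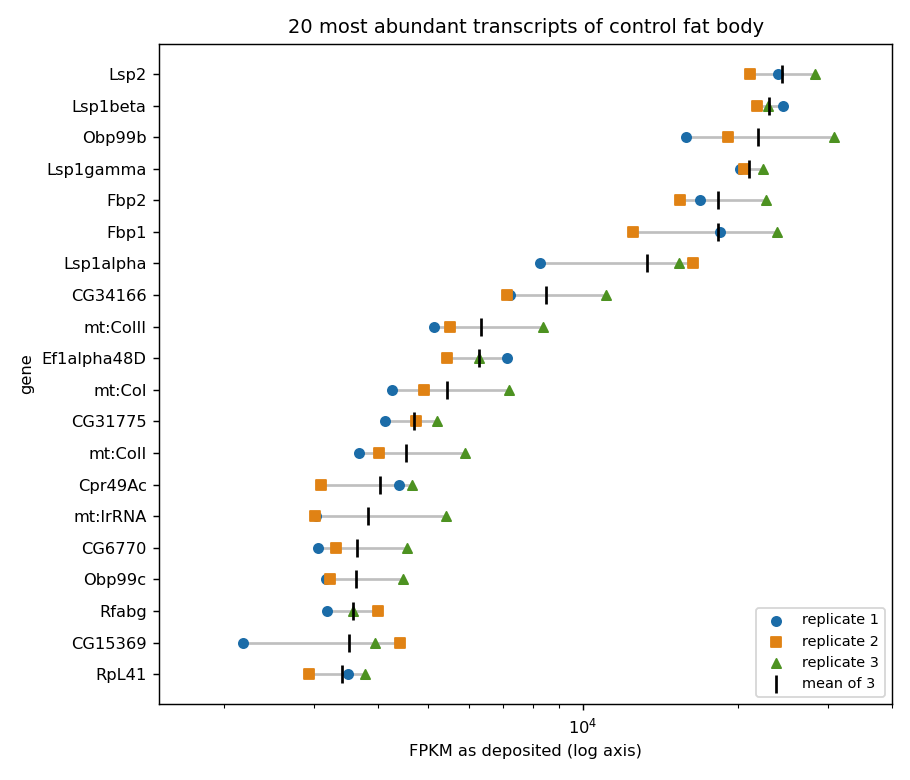
FPKM as deposited (log axis) of the 20 most abundant genes by mean share; symbols are the 3 control replicates, the black tick is their mean and the grey line spans them. Lsp2 ranks first, and Obp99b spans 15850 to 30804.

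Few genes carried most of the transcript pool. In replicates 1, 2 and 3 the top 10 genes took up 21.3%, 20.7% and 26.3% of all member FPKM (22.8% ± 3.1, SD), and the top 100 took up 48.7%, 47.1% and 54.2%. In replicates 1, 2 and 3, 105, 115 and 77 genes were enough for 50% of the sum. Replicate 3 was thus the most concentrated. A mean FPKM of at least 1000 was reached by 147 members and of at least 100 by 844, whereas 2586 members (39.5%) stayed under 10. Among the 100 most abundant genes 50 encoded cytosolic ribosomal proteins, 12 were of the serum protein class, 6 belonged to the mitochondrial genome and 5 to metabolism, and 21 had no list. The member genes accounted for 99.5% to 99.7% of the FPKM in each table.

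By functional class, serum proteins and the ribosome with translation made up similar shares. The serum protein class, 40 members of 56 listed genes, held 21.0%, 21.0% and 25.4% of the summed FPKM. Of this, 5.11%, 3.98% and 6.38% came from Fbp1 and Fbp2. Ribosome and translation, with 200 members, held 23.4%, 19.7% and 19.2%, highest in replicate 1. Metabolism (267 members) held 7.65%, 9.31% and 7.28%, highest in replicate 2. The mitochondrial genome held 3.40%, 3.54% and 5.00% with 13 members, and secretion and protein turnover 2.59%, 2.69% and 2.25% with 124. Immunity, with 82 members, held 1.38%, 1.42% and 1.36%. Its sum had the smallest relative spread of the 9 classes (CV 2.40%), with TotA making up 21.8% of it. The 5721 members in no list held 39.2%, 41.1% and 38.1%.

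**Figure D3:**
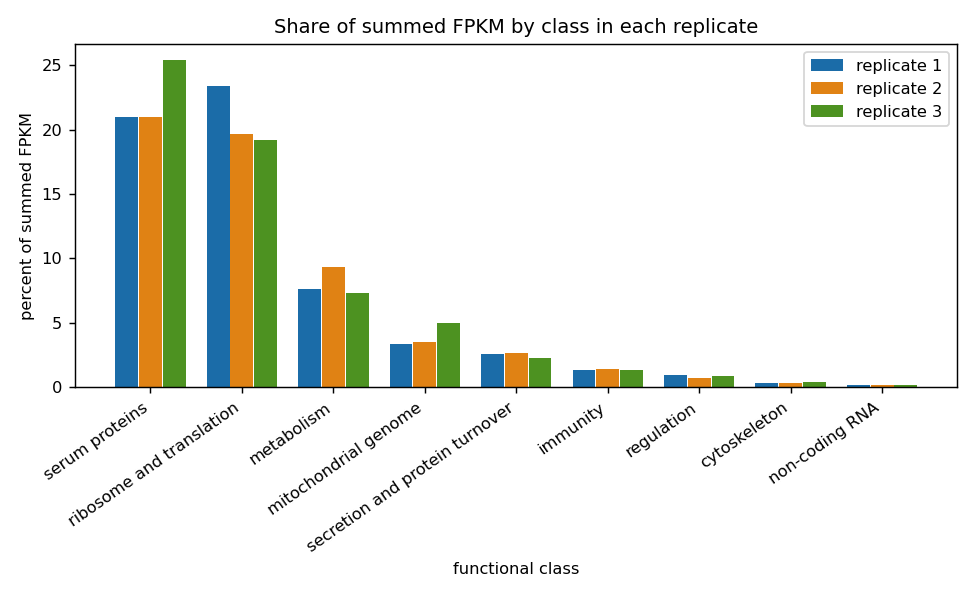
Percent of summed FPKM held by each functional class in replicates 1, 2 and 3 (bars from 0; members in no list are left out). Serum proteins are highest in replicate 3 (25.4%), ribosome and translation in replicate 1 (23.4%), and metabolism in replicate 2 (9.31%).

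To describe which genes were steady, each table was first scaled by its upper quartile, and the highest replicate of a gene was divided by its lowest. This ratio had a median of 1.36 over the 6550 members. It was over 2 in 787 members, 12.0% of all, which are called varying here, and under 1.2 in 1528 members, 23.3% of all, called steady. These percentages over all members are the background for the lists below. Without scaling they were 14.5% and 18.7%. With replicates 1, 2 and 3 left out in turn, 6.87%, 6.52% and 4.38% of the 6550 members were varying. In the immunity class, whose sum differed little, 19 of 82 members were varying (23.2%). Immunity was not alone in lying above the 12.0% of all members. Serum proteins (8 of 40), metabolism (49 of 267, 18.4%) and non-coding RNA (13 of 35, 37.1%) did so too. So did the mitochondrial genome (2 of 13), regulation (8 of 58) and the class of other genes (2 of 10). Below it lay ribosome and translation (12 of 200) and secretion and protein turnover (11 of 124, 8.87%). Genes of low level were varying more often: of 1300 members with a mean scaled FPKM from 1 to 5, 19.3% were varying, and of the 147 from 1000 upward 10.2%. Between these levels the share was 10.3% from 5 to 20, 9.76% from 20 to 100 and 11.0% from 100 to 1000. The most abundant genes were not the steady ones: 10.2% of the 147 were steady, against 12.4% from 1 to 5 and 29.6% from 20 to 100. The median CV of these 147 genes was 15.7%, against 1.54% from the counting of fragments alone. In the group from 1 to 5 the same medians were 22.4% and 19.2%. Compared in pairs, replicates 1 and 2 differed by over 2-fold in 4.41% of members, replicates 1 and 3 in 6.44% and replicates 2 and 3 in 6.90%.

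In the ribosome and the proteasome almost no member was varying. Of 83 members among the cytosolic ribosomal protein genes 1 was varying, the low RpS5b with FPKM of 5.66, 3.46 and 6.24. Steady were 15 (18.1%), a share below the 23.3% of all members. Relative to the sum of the list, the median ratio of highest to lowest was 1.11, against 1.26 on the scaled values, and the total of the list was 19.9%, 16.9% and 16.5%. The number of steady members depended on the scaling. With no scaling 42 of 83 were steady (50.6%), against 18.7% of all members. In the proteasome 0 of 33 members were varying and 12 were steady (36.4%), or 27 without scaling (81.8%). Pros25, its most abundant subunit, had FPKM of 178, 168 and 175. Of 46 translation factors 1 was varying and 17 were steady. Of 66 nuclear genes of the respiratory chain and ATP synthase 1 was varying, and of 33 lysosome and autophagy genes 1, both shares far below 12.0%. The latter list was led by the lysosomal aspartic protease cathD with 1691, 1415 and 2149.

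**Figure D4:**
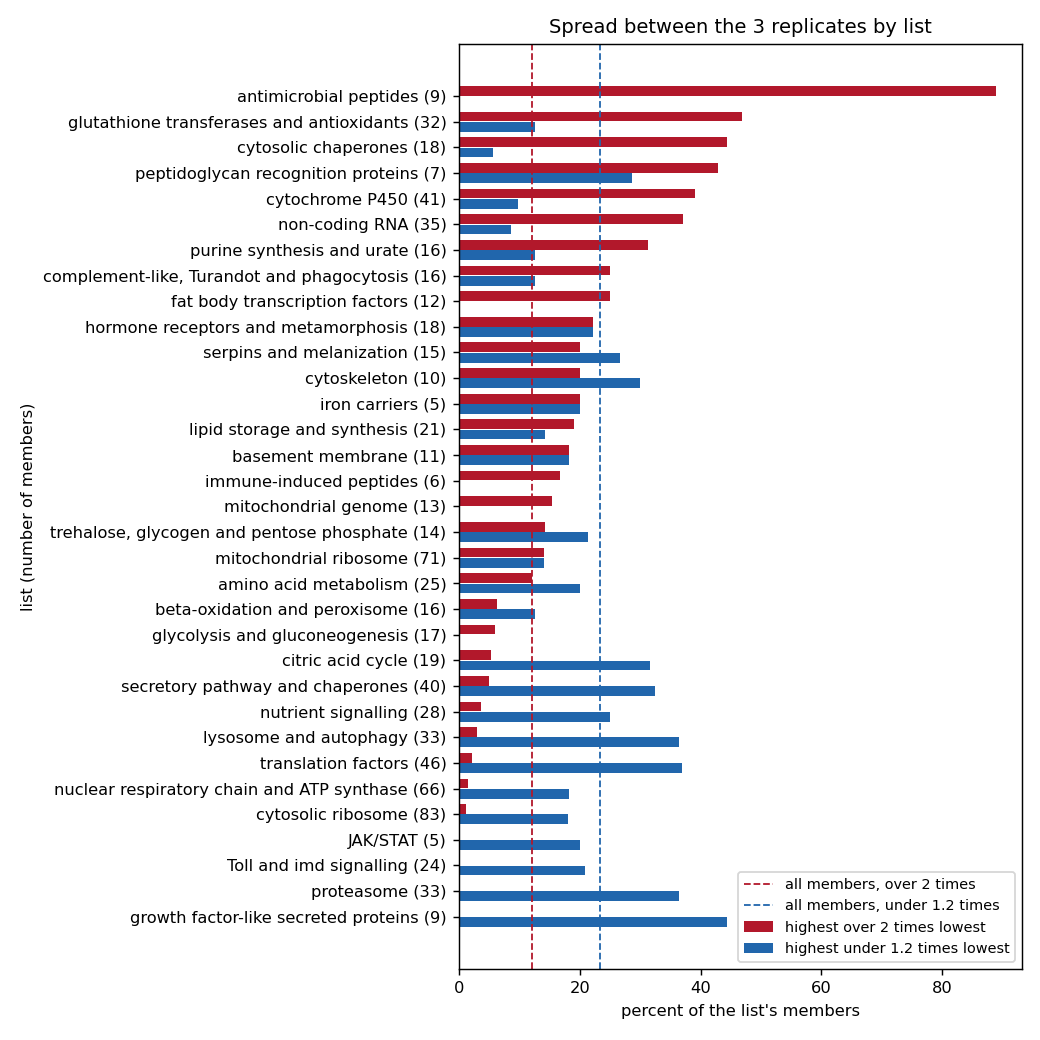
Percent of each list's members (number in brackets) whose highest replicate is over 2 times (red) or under 1.2 times (blue) the lowest; lists with at least 5 members are drawn. The dashed lines are the same percentages over all 6550 members, 12.0% and 23.3%; antimicrobial peptides lie far to the right and the proteasome has no red bar.

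Of 355 metabolism genes listed 267 were members, with a median FPKM of 89.99. For lipids, CG6783, a fatty acid binding protein by its current name, had 2172, 3277 and 2695 FPKM. The lipid droplet protein gene Lsd-1 had 1700, 1604 and 2105, and the desaturase desat1 had 1330, 1431 and 1111, with a ratio of 1.06 on the scaled values. ATPCL, which supplies cytosolic acetyl-CoA for fatty acid synthesis, was measured at 43.9, 102 and 27.7, highest in replicate 2. In all, 4 of 21 members for lipid storage and synthesis were varying, or 7 without scaling. When replicates 1, 2 and 3 were left out, 3, 1 and 2 were (14.3%, 4.76% and 9.52%). The shares of all members were then 6.87%, 6.52% and 4.38%. Pepck, the enzyme that commits to gluconeogenesis, had 2248, 1497 and 1644, and Gapdh1 of glycolysis 1151, 1495 and 1046. Gs1, a glutamine synthetase, led amino acid metabolism with 1817, 1639 and 1706. In beta-oxidation the acyl-CoA dehydrogenase-like gene CG12262 (959, 1637 and 1267) and scu (761, 1364 and 1043) were both lowest in replicate 1 and highest in replicate 2. Purine and pteridine synthesis contained 5 varying members of 16, such as Pu, GTP cyclohydrolase, with 240, 425 and 674 and CG11089 with 919, 550 and 1101. Without replicates 1, 2 and 3 in turn, 2, 1 and 1 of these 16 were varying. These are 12.5%, 6.25% and 6.25%, against 6.87%, 6.52% and 4.38% of all members. Tsf1, the iron carrier transferrin, stood at 237, 510 and 523.

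The serum protein class also holds clotting, growth factor-like and basement membrane genes. The clotting factor fon had FPKM of 2239, 3115 and 2475, the last with a failed status in the table, and Gel, gelsolin, had 1497, 1338 and 1404. Idgf4, of the imaginal disc growth factor family, had 919, 1397 and 1121, and 0 of the 9 members of the growth factor-like list were varying. In the basement membrane list BM-40-SPARC, a collagen-binding protein, was steady at 592, 572 and 447. The collagen IV chains Cg25C (501, 457 and 226) and vkg (234, 213 and 88.1) were both lowest in replicate 3. The endoplasmic reticulum chaperone Hsc70-3 (537, 652 and 257) and the protein disulfide isomerase Pdi (732, 1001 and 533) were also lowest there, and the share of the secretory pathway list was 1.01%, 1.22% and 0.75%. Of its 40 members 2 were varying, or 4 without scaling. For sugar stores, Tps1, which makes the blood sugar trehalose, was at 406, 527 and 316, and the malic enzyme gene Men at 567, 900 and 488. The actin gene Act5C was at 699, 754 and 1162, highest in replicate 3, as the muscle markers were; their part in this value was not tested. Mitochondrial ribosomal genes, with 71 members and a median FPKM of 12.7, held 10 varying members (14.1%), near the 12.0% of all.

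Detoxification genes were among the most varying. Of 32 glutathione transferase and antioxidant genes 15 were varying (46.9%), and of 41 cytochrome P450 genes 16 (39.0%). GstD1, a glutathione transferase that detoxifies electrophilic compounds, had FPKM of 237, 684 and 410. GstE3 had 349, 948 and 1038, and GstE7 112, 327 and 237. All 3 were lowest in replicate 1. Without replicate 1, 5 of the 32 were varying, while 450 of all 6550 members were (6.87%), and without replicates 2 and 3 the count was 12 and 10. In contrast Cyp4d1, the most abundant P450, was steady at 1123, 1012 and 915, and Cyp6g1 stood at 515, 520 and 670. Without replicates 1, 2 and 3 in turn, 9, 9 and 6 of the 41 P450 genes were varying (21.95%, 21.95% and 14.6%), against 6.87%, 6.52% and 4.38% of all members.

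Heat shock genes were highest in replicate 2. Of 18 cytosolic chaperones 8 were varying (44.4%). When replicate 2 was left out 1 was (5.56%, against 6.52% of all members). Without replicates 1 and 3 the count was 8 and 7 (44.4% and 38.9%, against 6.87% and 4.38%). Hsp70Ab, an inducible chaperone with near-identical copies that short reads cannot separate well, was measured at 1.15, 41.1 and 1.29 FPKM. Hsp26 followed the same course with 12.8, 86.8 and 19.4, and so did Hsp22 (9.96, 43.0 and 9.0), Hsp68 (33.3, 81.4 and 20.5), Hsp83 (164, 334 and 105) and the co-chaperone DnaJ-1 (11.0, 72.7 and 8.73). The constitutive chaperone Hsc70-4 differed little, with 805, 742 and 622 and a scaled ratio of 1.13. Hsp23 went the other way and was lowest in replicate 2 (1107, 453 and 954). The larval cuticle genes Lcp1 (1.00, 71.3 and 3.13) and Lcp4 (0.33, 92.9 and 0.70, not a member) and the prophenoloxidase genes proPO-A1 (2.98, 28.4 and 7.16) and CG8193 (5.11, 44.1 and 11.6), enzymes of melanization made by crystal cells, were also highest in replicate 2. Of the 10 hemocyte markers, 4 were highest in replicate 2: CG8193 itself, crq (45.8, 50.2 and 43.0), and CG6579 and lz, which stayed under an FPKM of 1. Another 3, Pxn (4.61, 5.99 and 7.74), nimC1 and eater, were highest in replicate 3. Whether the cuticle and blood cell markers had a part in the chaperone values was not tested.

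Among immune genes, most antimicrobial peptides were varying, and on scaled values no member for Toll and imd signalling was. Of 9 antimicrobial peptide members 8 were varying (88.9%), the highest share of any list with at least 5 members. Several rest on few fragments, such as Mtk with 23, 22 and 19. The median CV of the list was 52.6%, against 21.7% from the counting of fragments alone. Over all members these medians were 16.0% and 9.56%. Drs, which encodes the antifungal peptide drosomycin, had FPKM of 148, 255 and 535, highest in replicate 3. Mtk (metchnikowin) had 49.0, 38.8 and 84.4, and Dpt (diptericin) had 69.2, 46.2 and 65.4 and was the only peptide under 2-fold. AttA was at 1.13, 12.9 and 1.79, AttC at 5.99, 25.6 and 17.8 and CecC at 1.87, 3.12 and 11.6. The number of varying peptides was 6, 4 and 3 when replicates 1, 2 and 3 were left out. These are 66.7%, 44.4% and 33.3%, against 6.87%, 6.52% and 4.38% of all members. The genes Def and AttB were listed at 0 in all 3 replicates. The mitochondrial ribosomal genes mRpS16 and mRpL13, which every cell uses, were listed at 0 as well, so that no absence is read from such a value.

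Of 24 Toll and imd signalling members 0 were varying and 5 were steady (20.8%), against 12.0% and 23.3% of all members. Without scaling 1 was varying (4.17%) and 7 were steady (29.2%), against 14.5% and 18.7% of all members. GNBP3, a recognition protein for fungal glucans, had 429, 402 and 400, and nec, a serpin that restrains Toll signalling, 223, 191 and 164. Of the 7 peptidoglycan recognition members 3 were varying, for instance PGRP-SB1 with 77.4, 53.0 and 100.2. The receptor PGRP-LC was steady at 14.8, 15.8 and 11.0. TotA, a stress-induced humoral factor, was the most abundant immune transcript with 2011, 1872 and 2553, while TotM and TotX were listed at 0. CG16712, an immune-induced peptide, was at 1296, 1587 and 899. Stat92E, the transcription factor of the JAK/STAT pathway, had 160, 206 and 213.

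The 58 members of the regulation class had a median FPKM of 28.8, against 14.1 over all members. Thor, a translation inhibitor that binds eIF4E, had FPKM of 3508, 2598 and 3917 and alone made up 78.1% of the nutrient signalling list. Ras85D, the endogenous Ras gene, was at 35.3, 31.8 and 31.7. In the same list 1 of 28 members was varying. Hormone-responsive genes were measured at 138, 99.0 and 136 for br and at 81.1, 64.9 and 91.6 for Eip75B, both targets of ecdysone, and at 50.1, 61.0 and 55.2 for its receptor EcR. Of 18 members for hormone receptors and metamorphosis 4 were varying, E23 (35.9, 18.2 and 32.5), Eip78C (29.8, 16.9 and 40.1), Hr4 (2.59 in replicate 2 and 5.98 in replicate 3) and Hr46 (5.21, 1.28 and 2.65). All 4 were lowest in replicate 2, and 0 of the 18 were varying without it, against 6.52% of all members. The GATA factor srp was at 98.7, 101 and 100.1, and the transcription factor sug at 309, 163 and 107.

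The most varying gene of all with a mean scaled FPKM of at least 10 was Jon65Aiv, a digestive serine protease, with FPKM of 309, 33.5 and 1.41. On scaled values its highest replicate was 189 times its lowest. Of the 33 midgut markers 16 were highest in replicate 1, for example Jon65Aiii (176, 16.6 and 0) and deltaTry (76.0, 6.98 and 0). Next came Lcp1, CG42500 (1.19, 55.6 and 2.46), Hsp70Ab and CG34296 (16.8, 4.68 and 84.1). The remaining 5 of the 10 were snRNA:U2:38ABa, CG32368, Sodh-1, GstD6 and CG33169, and several of these rest on few fragments: the counting CV was 104% for snRNA:U2:38ABa and 60.7% for CG33169, but 19.0% for Sodh-1. At the other end, ste24a had scaled FPKM of 30.9, 31.0 and 31.1 and janA of 54.7, 54.7 and 54.4. Their ratios of 1.00 and 1.01 stand beside counting CVs of 7.18% and 9.41%, and these 10 genes were picked as the smallest ratios among 3965 members at that level. The other 8 were CG1882, CG14709, p, CG5676, yki, ade2, sw and UbcD2.

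**Figure D5:**
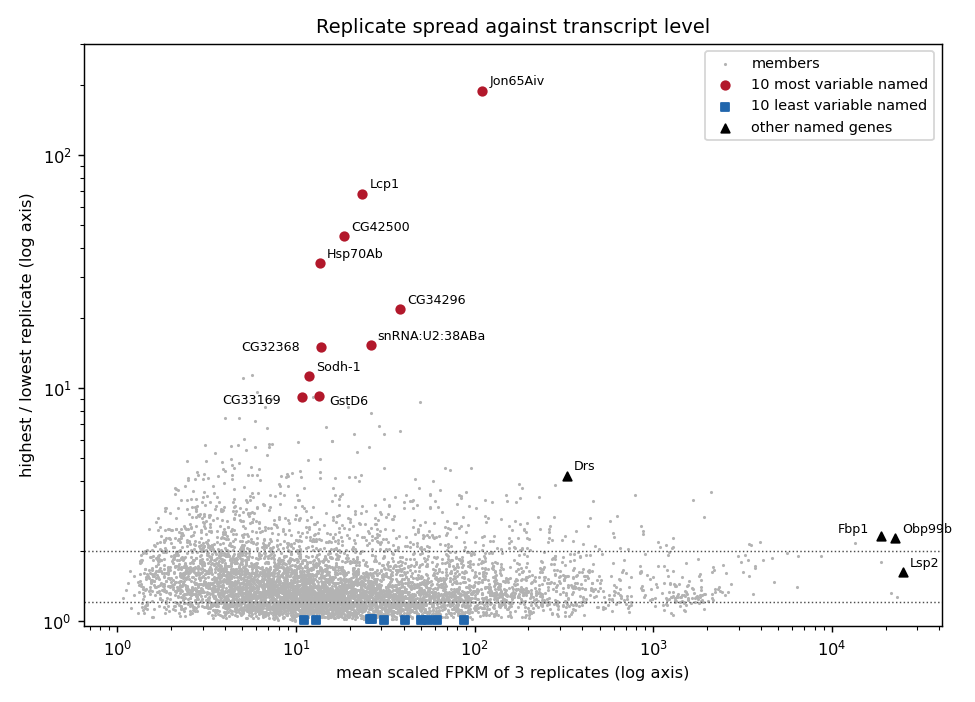
Ratio of the highest to the lowest replicate (log axis) against mean scaled FPKM (log axis) for all 6550 members; red and blue symbols are the 10 most and 10 least varying genes with a mean of at least 10, black triangles are Lsp2, Fbp1, Obp99b and Drs. Dotted lines mark ratios of 2 and 1.2, and Jon65Aiv stands highest at 189.

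Transcripts of the X chromosome contributed 13.2%, 15.0% and 13.1% of the summed FPKM from 1092 members, and those of the other large arms between 17.2% (2R, replicate 3) and 24.1% (2L, replicate 1). Some X-linked genes, picked after their values were seen, were lowest in replicate 1: besides Lsp1alpha, CG15369 had FPKM of 2177, 4403 and 3948. The non-coding RNA roX1, which marks the male X chromosome in dosage compensation, stood at 18.5, 63.5 and 50.8, and roX2 at 2.23, 5.27 and 4.33. The X-linked gene regucalcin had 2333, 4606 and 2185 and did not share that order. Cyp4d1 (1123, 1012 and 915) and trol (444, 386 and 274), also X-linked, were highest in replicate 1. How many X-linked members were lowest in each replicate was not counted. Whether the sex of the pooled larvae had a part in these values was not tested.

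Run 3B, a second sequencing of replicate 3, gave a measure of technical spread. It rested on 855836 fragments, and 118 of the 6531 members listed in it stood at 0. Of the 6413 members above 0 in both runs, 7.58% differed by over 2-fold, and the median ratio was 1.19. That percentage was above those of the replicate pairs. Run 3B had fewer fragments than any replicate, however, so counting adds more spread and the percentages are not like for like. The share of the mitochondrial genome was 5.00% in run 3A and 8.74% in run 3B, and mt:lrRNA, the large mitochondrial ribosomal RNA, stood at 5426 and 13185. The serum protein class was at 25.4% and 26.5%, and ribosome and translation at 19.2% and 17.6%.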

How the data were processed

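RNA of pooled fat bodies was sequenced as 100 bp paired ends on a HiSeq 2000. The authors mapped reads with TopHat 1.0.14, removed duplicates and computed the deposited FPKM values with Cufflinks 0.0.5 on the Ensembl annotation of BDGP5. Values therefore depend on duplicate removal, which limits highly abundant genes, and on the gene models. Run 3A was taken as control replicate 3. Fragments were worked out from the confidence bounds, read as 2 standard errors, and cover counting error only. The loci of 2426 members (37.0%) overlap another gene, whose reads may be shared. Starts were converted to count from 1.

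Shares were computed over the summed FPKM of members. For spread, each table was scaled by its 75th percentile, taken across genes detected in any of the 3 (factors 0.967, 0.928 and 1.13). The members and lists were chosen with earlier results of these data known. Of the list names given as symbols 509 were matched by deposited symbol, 38 by current symbol and 42 not. Named were the 20 members of highest mean share, the 3 most abundant of each list, the 10 most and 10 least varying with a mean scaled FPKM of at least 10, and list and marker genes where their list is described. Other genes that a paragraph names were chosen after their values were seen. No test was made, since the single group has no contrast. Alternatives changed the table used for replicate 3, the filter, the scaling, the genes summed and the replicates. Scaling and spread were tested on simulated data at the depth of replicate 1, without genes of few fragments. The upper-quartile factor was held to a limit only where as many genes rose as fell. Where changed genes only rose, the upper quartile is shifted. Replicates are pools, and nothing states that they came from separate cultures, so that their spread may be technical. Tables of the RasV12 samples and the authors' comparison were not used. Python 3.11.15, pandas, numpy and matplotlib were used.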

Additional observations from a re-analysis of the deposited data

How the results depend on the processing

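Under the alternatives, the number of members ranged from 4771 with an FPKM of at least 5 to 7823 with any value above 0. The shares of the 10 most abundant genes, of serum proteins, of ribosome and translation and of metabolism moved by less than 1 SD in every setting run. The immunity share moved from 1.39% to 1.45% without the genes of the mitochondrial genome, since fewer genes were summed. The share of varying genes was 21.8% with any value above 0. It ranged from 4.94% to 7.18% when a replicate was left out, and that of steady genes from 46.2% to 52.6%, where a ratio of 2 samples replaces that of 3. The table labelled as both runs merged is no independent check of replicate 3: in 94.4% of members it equals run 3A times 0.770 within 1%. No paired analysis was possible because there is a single group. The depth of replicate 3, 2900630 fragments, limits what is seen for genes of low level.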

Other observations

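Outside the members, 422 genes reached an FPKM of 1 in 2 replicates only and 524 in 1 replicate only. At an FPKM of at least 10 in 1 replicate and under 1 in another stood 95 genes. Syt1, a synaptic vesicle protein gene, was steady at 120, 124 and 122 FPKM, while the other nervous system markers together reached 0.62, 0.95 and 0.67. Nplp2, named as a neuropeptide-like precursor and without a list, had 3674, 1923 and 887, and Adh, the alcohol dehydrogenase gene, 948, 2443 and 2273. The snRNA genes snRNA:U1:95Ca and snRNA:U1:95Cb carried identical values of 33.0, 5.78 and 9.09, as near-identical copies that cannot be told apart here.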
